A study of Homo sapiens with 4 samples.

Results

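The enzymes that write H3K27 methylation, write DNA methylation and oxidise methylated DNA were examined in NB4 cells with and without GNE-987. The 10 genes were the PRC2 (Polycomb repressive complex 2) core genes EZH1, EZH2, EED and SUZ12, the DNA methyltransferase genes DNMT1, DNMT3A and DNMT3B, and the TET genes TET1, TET2 and TET3. They were chosen by name, as the deposited identifiers that carry these symbols in GENCODE release 44, and all 10 were found among 58735 listed genes. NB4 is an established human line derived from a promyelocytic leukemia. GNE-987 is a bifunctional molecule that joins BET bromodomain proteins to an E3 ubiquitin ligase and so marks them for breakdown. RNA was sequenced from 2 libraries of control cells, which the labels give as untreated, and 2 libraries of cells given GNE-987 at 25 nM for 24 h. Controls of the study's viability assay received the solvent DMSO, and whether these libraries did is not given in the sources used here. The dose and time come from the study's legends, not from the labels. The labels do not say whether the 2 libraries of a group came from separate cultures, so P values measure only the spread between these libraries.

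PRC2 places methyl groups on histone H3 at K27, a mark of silenced genes. EZH1 or EZH2 is the catalytic subunit, EED binds the finished mark and stimulates the enzyme, and SUZ12 holds the complex together. DNMT1 copies DNA methylation after replication, DNMT3A and DNMT3B set new methylation, and the TET enzymes oxidise 5-methylcytosine as the first step of its removal. Genes of these families, among them EZH2, DNMT3A and TET2, are recurrently altered in myeloid leukemia.

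Expression was given as FPKM, fragments scaled to exon length and to the library, which allows levels to be compared between genes. Whole reads on genes, read back from steps in the FPKM values, numbered 18446938 and 18212740 in control and 11738581 and 12220391 in treated libraries. Of 16668 genes averaging 0.5 FPKM or more, 33.6% were called higher and 24.9% lower with GNE-987. A gene was called at an unadjusted P value under 0.05 from limma and a fold change over 2 or under 0.5. Among the 10996 protein-coding genes tested, these shares were 24% higher and 31.7% lower. The median log2 fold change was 0.17 over all tested genes and -0.29 over protein-coding genes. The summed FPKM was 218486 and 227275 in control but 624137 and 612335 after treatment, so each direction below was also examined under other scalings. In bulk RNA, fewer cells that express a gene cannot be told apart from less RNA of it per cell.

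The labelled cell type was compared with marker genes. Of 8 promyelocyte markers, the granule genes ELANE and CTSG were listed at 0 in both control libraries and MPO was at 0.0246 and 0 FPKM. The 8 markers summed to 10.8 and 9.53 FPKM in the control libraries and to 32.3 and 29.6 FPKM with GNE-987, where MPO reached 11.8 and 11.3 FPKM. The granule gene AZU1 was at 2.07 and 2.10 FPKM in control and at 12.6 and 10.9 FPKM in treated cells. SPI1, the largest part of the control sum, went from 7.52 and 5.68 FPKM to 4.80 and 3.23 FPKM. Of the 6 promyelocyte markers tested, 3 were called higher and 1, CD33, lower, beside 24% and 31.7% of protein-coding genes. The 8 erythroid markers summed to 302 and 311 FPKM in control and to 301 and 254 FPKM with GNE-987. Among them, the transcription factor gene GATA1 was at 124 and 122 FPKM in control and at 15.1 and 12.5 FPKM with GNE-987, whereas the fetal globin gene HBG1, which can share reads with its copy HBG2, was at 42.3 and 44.8 FPKM and then at 154 and 123 FPKM. The 6 lymphoid markers summed to 17.2 and 16.2 FPKM in control and to 44.2 and 43.6 FPKM with GNE-987. CD3E, MS4A1 and CD2 were listed at 0 in both control libraries. CD3D made up most of the control sum, at 16.2 and 15.3 FPKM, and CD79A rose from 0.0867 and 0 FPKM to 23.4 and 21.4 FPKM. MPO, ELANE and CTSG were thus at or near 0 in the control libraries labelled NB4. The part of these marker shifts in the results below was not tested.

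In the deposited values, EZH2 rose and the other PRC2, DNMT and TET genes were lower with GNE-987. TET1, DNMT3A, EZH1, EED and TET3 fell, by 2.53-fold for TET3 to 9.59-fold for TET1. SUZ12, DNMT1 and DNMT3B were lower by about the same amount, 1.41-fold for each, which is under the 2-fold limit. TET2 had a mean of 0.492 FPKM and was not tested with the others, since it was under the minimum. Of the 9 genes tested, 1 was called higher and 5 lower, beside 33.6% and 24.9% of all tested genes, and all 9 had an adjusted P value of 0.00495 or less from limma, Benjamini-Hochberg adjusted over the 16668 genes, beside 77.6% of all tested genes under 0.05. DNMT3A and TET1 had means under 0.5 FPKM with GNE-987 and passed the minimum through their control values. The 2 groups did not overlap for any of the 10 genes, 9 with GNE-987 below control and 1 above, beside 41.6% and 47.5% of all tested genes.

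**Figure D1:**
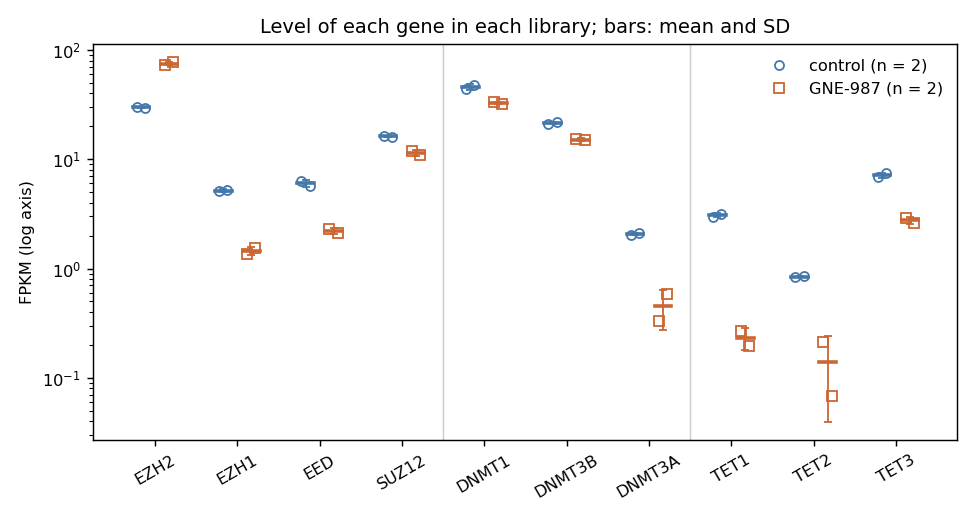
Expression in FPKM on a log axis for each gene in the 2 control libraries (circles) and the 2 GNE-987 libraries (squares), with the group mean and SD. EZH2 is the only gene whose squares lie above its circles in the deposited values, and TET1 falls furthest, from a mean of 3.07 to 0.233 FPKM.

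EZH2, the catalytic subunit of PRC2 that prevails in dividing cells, was at 30.1 and 29.6 FPKM in control and at 73.0 and 76.8 FPKM in the treated libraries. Both treated libraries lay above both controls, with means of 29.9 ± 0.347 FPKM and 74.9 ± 2.72 FPKM (SD, n = 2 each). The log2 fold change was 1.32 (95% interval 1.19 to 1.46, adjusted P = 0.000206 from limma), a 2.50-fold increase. This direction rests on the scaling of the libraries. The log2 fold change was 0.78 with quantile normalization and 0.55 with scaling to total reads on genes, and turned to -0.15 with scaling to total FPKM and to -0.53 with scaling to GAPDH. Against the median over all tested genes, EZH2 was higher by 1.15 on the log2 scale in the deposited values and by 1.03 with quantile normalization. Scaling to GAPDH, total FPKM or total reads moves EZH2 and the median nearly alike, so it cannot test this difference. The value rested on many reads, 6268 and 5924 in control and 5516 and 6130 with GNE-987. EZH2 spans, on chromosome 7 of GRCh38 and its minus strand, 148807257 to 148884321. Within it, on the opposite strand, lie the small RNA genes RNU7-20P and a Metazoa_SRP copy, which were at 10.96 FPKM or less in every library. Both were called higher with GNE-987, like EZH2, with log2 fold changes of 1.49 and 4.54, and whether the counting used strand is not given in the sources used here.

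EZH1, the catalytic subunit used more in resting cells, moved the other way. It was at 5.07 and 5.27 FPKM in control and at 1.37 and 1.54 FPKM after treatment. The treated libraries lay far below the controls, with a log2 fold change of -1.76 (SE 0.109), adjusted P = 0.000547 from limma. It was called lower under every scaling, between -3.52 and -1.76 on the log2 scale. Scaling to GAPDH, total FPKM or total reads moves every gene down, so it could hardly undo this call. The gene lies on the minus strand of chromosome 17 from 42700275 to 42745049, and its treated values came from 80 and 95 reads.

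The balance of the 2 catalytic genes was compared within each library, where the scaling of the library cancels. EZH2 was 5.94 and 5.62 times as abundant as EZH1 in the control libraries and 53.3 and 49.9 times as abundant with GNE-987. The log2 ratio of EZH1 to EZH2 changed by -3.16, and the groups did not overlap. The exact permutation test gave a P value of 0.33, which is the smallest that 2 against 2 libraries allow. EZH2 made up 85.6% and 84.9% of the summed FPKM of the pair in control and 98.2% and 98.0% with GNE-987.

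EED, the subunit that reads the H3K27 mark, was at 6.36 and 5.73 FPKM in control and at 2.32 and 2.12 FPKM when treated. The log2 fold change was -1.41 (SE 0.106, adjusted P = 0.00086 from limma), and both treated libraries were below both controls. EED lies on the plus strand of chromosome 11 from 86201212 to 86278813. SUZ12, the scaffold subunit on the plus strand of chromosome 17 from 31937007 to 32001038, was at 16.4 and 16.1 FPKM in control and at 11.9 and 11.0 FPKM with GNE-987. Its log2 fold change of -0.50 (95% interval -0.69 to -0.32, adjusted P = 0.00367 from limma) did not reach the 2-fold limit. A copy of SUZ12 on the same chromosome, the transcribed pseudogene SUZ12P1, was at 3.98 and 4.21 FPKM in control and at 5.61 and 5.52 FPKM with GNE-987, and reads shared between such copies make the value of SUZ12 less certain.

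The core genes of PRC2 therefore did not keep their proportions. In the control libraries there were 4.73 and 5.17 units of EZH2 per unit of EED on the FPKM scale, and 31.5 and 36.3 with GNE-987. EZH2 was 1.84 times as abundant as SUZ12 in both control libraries and 6.11 and 6.99 times with GNE-987. The ratio of EED to SUZ12 went from 0.389 and 0.355 to 0.194 and 0.193. None of these within-library ratios overlapped between the groups, and each had an exact permutation P value of 0.33. These ratios were added after the values had been seen.

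DNMT1, the maintenance methyltransferase, was the most abundant of the 10 genes in control cells. It was at 44.01 and 47.6 FPKM there and at 33.1 and 32.0 FPKM in treated cells. The log2 fold change of -0.49 (95% interval -0.66 to -0.32) had an adjusted P value of 0.00288 from limma and was under the 2-fold limit. DNMT1 is annotated on the minus strand of chromosome 19 from 10133342 to 10231286. The receptor gene S1PR2 overlaps this span on the same strand, from 10221433 to 10231331, and was at 0.856 FPKM or less in every library.

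DNMT3B, a de novo methyltransferase that is high in stem cells, was at 21.1 and 21.8 FPKM in control and at 15.4 and 14.9 FPKM with GNE-987. Its log2 fold change was -0.50 (95% interval -0.65 to -0.35, adjusted P = 0.00199 from limma). The gene lies on the plus strand of chromosome 20 from 32762385 to 32809359. The proportion of DNMT3B to DNMT1 overlapped between the groups, with 0.479 and 0.459 units of DNMT3B per unit of DNMT1 in control and 0.466 and 0.465 with GNE-987. Its log2 change was -0.01. This ratio was added after the values had been seen, and with quantile normalization the log2 fold changes were -0.99 for DNMT1 and -0.65 for DNMT3B.

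DNMT3A, the other de novo enzyme, fell more. It was at 2.03 and 2.11 FPKM in control and at 0.328 and 0.584 FPKM with GNE-987, on 33 and 62 reads. The 2 treated libraries differed from each other by more than the controls did, but both were below them, and the log2 fold change was -2.0 (SE 0.291, adjusted P = 0.00495 from limma). It was -2.34 without GNE-987 replicate 2 and -1.67 without GNE-987 replicate 1. DNMT3A lies on the minus strand of chromosome 2 from 25227855 to 25342590. The ratio of DNMT3A to DNMT1 went from 0.0462 and 0.0444 in control to 0.00991 and 0.0183 with GNE-987, a log2 change of -1.75 with an exact permutation P value of 0.33. In the summed FPKM of the DNA methyltransferases, DNMT3A made up 3.03% and 2.95% in control and 0.671% and 1.23% with GNE-987, whereas DNMT1 held 65.5% to 67.7% and DNMT3B 30.5% to 31.6% in the 4 libraries.

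TET1 had the largest decrease of the 9 genes tested. It was at 2.97 and 3.17 FPKM in control and at 0.270 and 0.195 FPKM with GNE-987, which is 636 and 652 reads against 21 and 16. The log2 fold change was -3.26 (SE 0.203, adjusted P = 0.000559 from limma), and 1.29% of all tested genes had a lower one. With a pseudocount of 1 in place of 0.1 it was -1.72, since the treated values are low. TET1 lies on the plus strand of chromosome 10 from 68560337 to 68694487, and the processed pseudogene COX20P1 within it was at 2.22 to 4.01 FPKM in the 4 libraries.

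TET2 was the least abundant of the 10 genes in both groups. It was at 0.844 and 0.845 FPKM in control and at 0.211 and 0.0688 FPKM with GNE-987, which is 320 and 308 reads against 29 and 10. In the fit without a minimum expression, its log2 fold change was -2.04 (SE 0.405), with adjusted P = 0.0255 from limma over the 32895 genes above 0. TET2 lies on the plus strand of chromosome 4 from 105145875 to 105279816. The antisense gene TET2-AS1 had 0.891 FPKM in GNE-987 replicate 1 and was listed at 0 in the other libraries.

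TET3 was the most abundant TET gene in every library. It was at 6.88 and 7.43 FPKM in control and at 2.91 and 2.62 FPKM in treated cells. The log2 fold change was -1.34 (SE 0.0982, adjusted P = 0.0008 from limma), and the groups were far apart beside the spread within them. TET3 lies on the plus strand of chromosome 2 from 73984910 to 74108176, and the noncoding gene ENSG00000235499 at its start, on the same strand, was also called lower, with a log2 fold change of -1.75.

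The TET genes summed to 10.7 and 11.4 FPKM in control and to 3.40 and 2.89 FPKM with GNE-987. The share of TET3 in this sum went from 64.3% and 64.9% to 85.8% and 90.9%, and that of TET1 from 27.8% and 27.7% to 7.96% and 6.76%. The share of TET2 was 7.89% and 7.38% in control and 6.20% and 2.38% with GNE-987. The ratio of TET2 to TET3 went from 0.123 and 0.114 to 0.0722 and 0.0262, a log2 change of -1.44 with an exact permutation P value of 0.33, but with a pseudocount of 1 the log2 change was 0.42. Without GNE-987 replicate 1 and replicate 2 in turn, the change was -2.17 and -0.71.

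**Figure D2:**
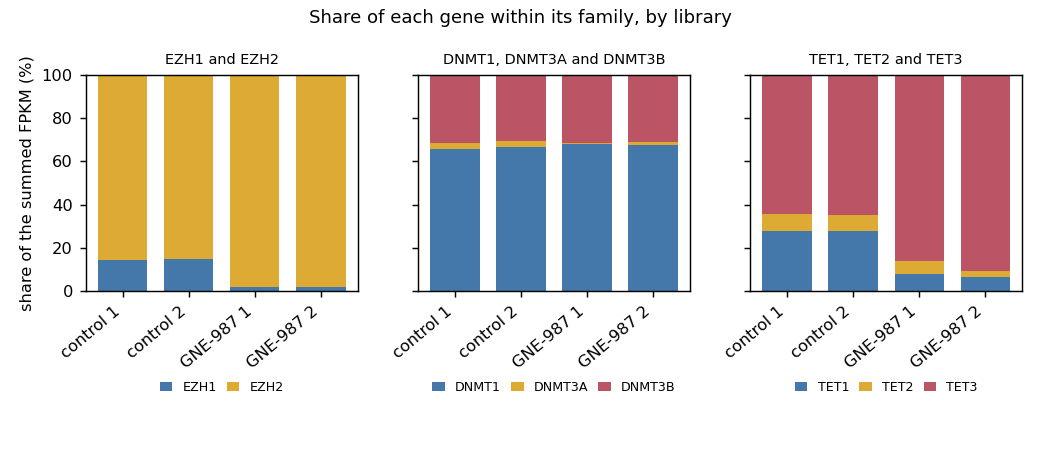
Share of each gene, in percent of the summed FPKM of its family, in each of the 4 libraries. EZH2 and TET3 take larger shares with GNE-987, and the division between DNMT1 and DNMT3B stays nearly the same.

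The order of the genes by level changed at 2 places. In control it was DNMT1, EZH2, DNMT3B, SUZ12, TET3, EED, EZH1, TET1, DNMT3A and TET2 from highest to lowest FPKM, and the ranges of neighbours did not overlap. With GNE-987, EZH2 stood above DNMT1, and DNMT3A stood above TET1. The ranges of TET1 and TET2 then overlapped, with 0.195 FPKM as the lowest value of TET1 and 0.211 FPKM as the highest of TET2.

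The scaling of the libraries moved the size of each change, and for EZH2 its direction. The deposited values already had median-ratio scaling, with factors of 1 when it was computed again. GAPDH was at 398 and 432 FPKM in control and at 1501 and 1499 FPKM with GNE-987. Scaling to GAPDH shifted the median over all tested genes by -1.77 on the log2 scale, scaling to total FPKM by -1.40, scaling to total reads on genes by -0.74 and quantile normalization by -0.42. EZH1, EED, DNMT3A, TET1 and TET3 were called lower under each of these scalings. Those to GAPDH, total FPKM and total reads move every gene down, so they could hardly undo a call of lower. Quantile normalization also moved the median down, and no scaling that moves genes up was tried. SUZ12, DNMT1 and DNMT3B were called lower with scaling to total reads, with -1.27, -1.27 and -1.28, as well as with total FPKM and GAPDH. EZH2 was called only with the deposited scaling among the 5.

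**Figure D3:**
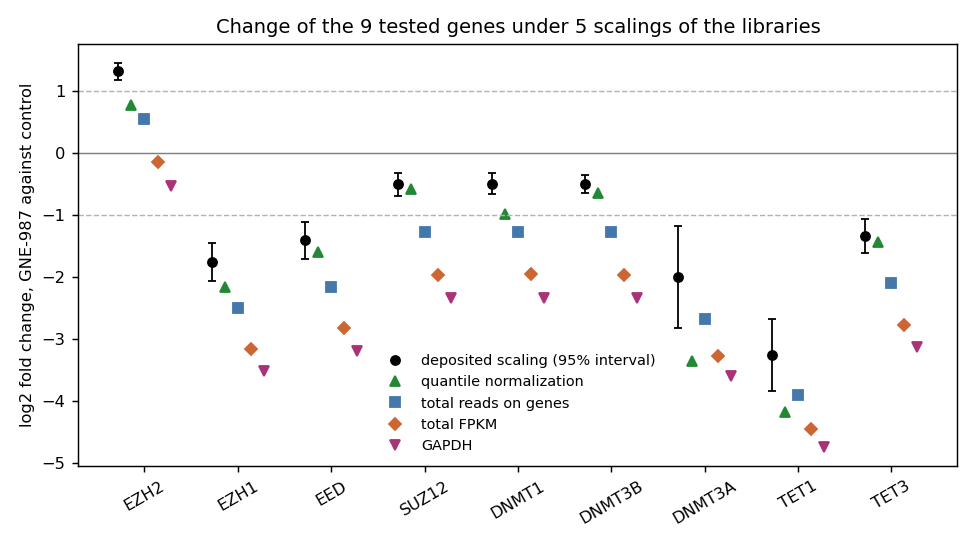
Log2 fold change of the 9 tested genes, GNE-987 against control, with the deposited scaling (circles with 95% intervals) and 4 other scalings of the libraries. The dashed lines mark the 2-fold limits. EZH2 runs from 1.32 to -0.53, whereas EZH1, EED, DNMT3A, TET1 and TET3 lie below -1 in each. Scaling to GAPDH, total FPKM or total reads moves every gene down.

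The start regions of the genes were compared in sequence. E2F factors, which act in the cell cycle, are known to bind near the starts of EZH2 and of many replication genes. RefSeq start regions on GRCh38.p14, of 250 bases before to 50 after a start, were found for all 10 genes, 20 regions in all. They were searched on both strands for an E2F-type motif of 8 letters, TTTCCCGC, TTTCGCGC, TTTGCCGC or TTTGGCGC. The motif was in the regions of 4 of the 10 genes, against 1090 of 27305 genes (3.99%) with a region. Counted by region, it was in 4 of 20, against 1164 of 35116 (3.31%). The stretches that hold it are printed 5′ to 3′ on the strand of the gene with the motif in capitals, which in EZH1 and DNMT1 reads on the opposite strand.
EZH2, chr7:148884272-148884316, minus strand: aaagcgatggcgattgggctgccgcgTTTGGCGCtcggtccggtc
SUZ12, chr17:31936792-31936851, plus strand: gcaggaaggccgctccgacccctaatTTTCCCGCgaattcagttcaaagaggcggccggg
EZH1, chr17:42745122-42745181, minus strand: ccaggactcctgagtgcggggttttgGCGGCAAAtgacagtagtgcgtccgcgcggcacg
DNMT1, chr19:10194934-10194981, minus strand: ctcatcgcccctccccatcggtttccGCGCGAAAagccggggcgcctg

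These 4 genes did not share a direction in the deposited values. There EZH2 rose, EZH1 fell, and SUZ12 and DNMT1 were lower by less than 2-fold. With scaling to total FPKM or GAPDH, all 4 had negative log2 fold changes, with EZH2 at -0.15 and -0.53. The start regions of the 10 genes held a median of 27 CpG sites over 300 bases, against 14 over all 35116 regions. Every form of the motif contains a CpG, and the shares of regions with the motif were not matched for CpG number. A match of letters is a description of the sequence and not a binding site.

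Other PRC2 genes, among them accessory subunits and the histone-binding subunits RBBP4 and RBBP7, moved in both directions. Of 11 genes, 10 were tested, of which 2 were called higher and 5 lower, beside 24% and 31.7% of protein-coding genes. Their median log2 fold change was -0.96, against -0.29 over protein-coding genes. PHF1, a Polycomb-like subunit, rose from 14.6 and 13.7 FPKM to 62.9 and 67.0 FPKM, a log2 fold change of 2.19 that became 0.34 with scaling to GAPDH and 0.72 with total FPKM, under the 2-fold limit. JARID2, a targeting subunit, rose from 10.4 and 11.7 FPKM to 31.2 and 29.6 FPKM in the deposited values, but was at -0.39 with scaling to GAPDH and -0.014 with total FPKM. EPOP fell by 2.74 on the log2 scale and MTF2, another Polycomb-like subunit, from 6.66 and 6.19 FPKM to 1.54 and 1.74 FPKM. JARID2 was thus 1.57 and 1.90 times as abundant as MTF2 in control and 20.3 and 16.97 times with GNE-987, a ratio that was chosen after its values were seen. The histone-binding subunit RBBP4 fell, with a log2 fold change of -1.28, whereas that of its relative RBBP7 was -0.35 and not past the limit.

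PRC1, which places ubiquitin on histone H2A, had 18 of 20 genes tested, with 3 called higher and 8 lower, that is 16.7% and 44.4% beside 24% and 31.7% of protein-coding genes, and a median of -0.80. RYBP, a subunit of the variant complexes, rose from 5.36 and 5.08 FPKM to 41.7 and 39.97 FPKM. The chromodomain genes CBX6 and CBX2 fell, with log2 fold changes of -2.92 and -1.87. Among 5 tested genes whose products remove the marks of PRC2 and PRC1 or help to do so, 1 was higher and 3 lower, with a median of -1.35, beside the same 24% and 31.7%. The H3K27 demethylase gene KDM6A rose from 4.33 and 4.34 FPKM to 8.91 and 9.05 FPKM, a log2 fold change of 1.03 that became -0.79 with scaling to GAPDH and -0.42 with total FPKM. Its relative KDM6B was at 5.19 and 4.76 FPKM in control and at 4.93 and 4.26 FPKM with GNE-987, with a log2 fold change of -0.12 (adjusted P = 0.389 from limma). BAP1, the H2A deubiquitinase, and its partner ASXL2 fell, with log2 fold changes of -2.22 and -2.37.

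**Figure D4:**
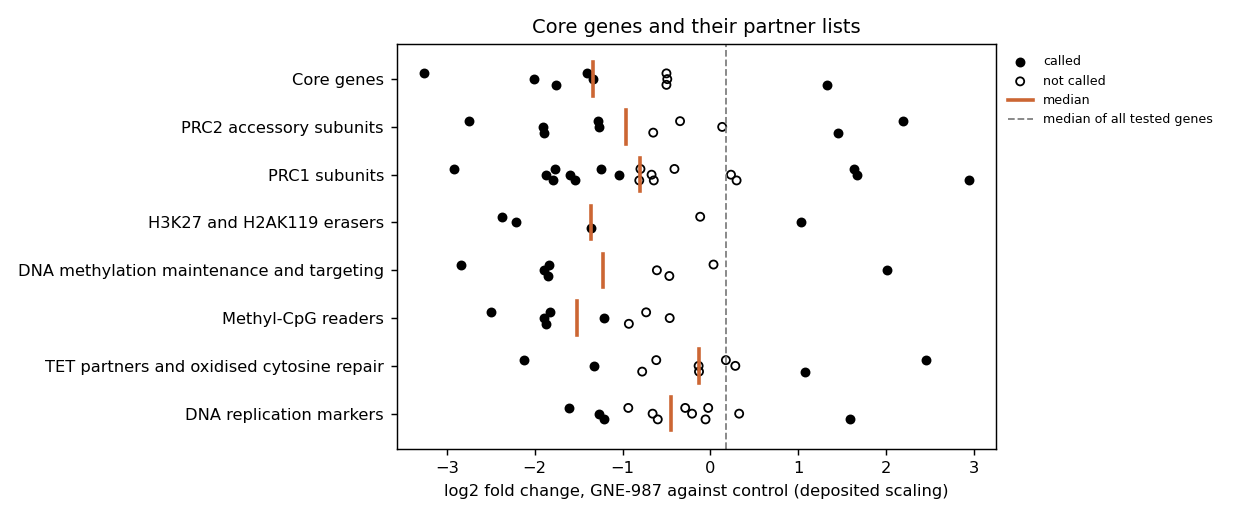
Log2 fold change of each tested gene with the deposited scaling, for the PRC2, DNMT and TET core genes and 7 lists of related genes. Filled points were called, open points were not, bars are list medians and the dashed line is the median of all tested genes, 0.17.

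Of 10 genes that maintain or direct DNA methylation, 8 were tested, of which 1 was called higher and 4 lower, that is 12.5% and 50%, with a median of -1.22. Among protein-coding genes the shares were 24% and 31.7% and the median -0.29. UHRF1, which brings DNMT1 to newly copied DNA, was at 23.5 and 24.8 FPKM in control and at 23.8 and 25.7 FPKM with GNE-987. Its groups overlapped, and its log2 fold change was 0.04 (SE 0.0631, adjusted P = 0.63 from limma), with values from -1.81 to -0.22 under the 4 other scalings. UHRF1 stood at 0.534 and 0.520 units per unit of DNMT1 in control and at 0.719 and 0.803 with GNE-987. This ratio was also added after the values had been seen, and its exact permutation P value was 0.33. The remodeller gene HELLS had a log2 fold change of -0.47 (adjusted P = 0.14 from limma). TRIM28, the corepressor of zinc finger proteins, rose from 206 and 196 FPKM to 801 and 818 FPKM. Its log2 fold change of 2.01 became 0.16 with scaling to GAPDH, 0.19 with quantile normalization and 0.54 with total FPKM, under the 2-fold limit. NSD1, the H3K36 methyltransferase whose mark guides DNMT3A, and CDCA7, the partner of HELLS, fell, with log2 fold changes of -2.84 and -1.90.

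The readers of methylated CpG had 8 of 8 genes tested, with 0 called higher at these thresholds, 5 lower and a median of -1.52, beside 24% and 31.7% of protein-coding genes called. At an unadjusted P value under 0.05 from limma with no fold limit, all 8 were lower, beside 48.7% of protein-coding genes. This looser threshold was not planned and was applied to no other list. ZBTB33 and MBD2 fell, with log2 fold changes of -1.89 and -1.87. Among 11 partners of the TET enzymes and genes that repair oxidised cytosine, 10 were tested, 2 were higher and 2 lower, 20% each way beside 24% and 31.7% of protein-coding genes, and the median was -0.13. NEIL1, a DNA glycosylase, rose from 1.18 and 1.20 FPKM to 7.34 and 6.63 FPKM, a log2 fold change of 2.46 that became 0.68 with scaling to GAPDH, under the 2-fold limit. TDG, the glycosylase that removes oxidised 5-methylcytosine, fell from 16.98 and 17.8 FPKM to 6.78 and 6.98 FPKM. IDH2, an enzyme that makes the cofactor of the TET enzymes, had a log2 fold change of 1.08, which became -0.77 with scaling to GAPDH and -0.39 with total FPKM. Its relative IDH1 was at 0.28 and not past the limit, and also turned below 0 with scaling to GAPDH, total FPKM and total reads. CXXC5, which binds unmethylated CpG, fell by 2.13 on the log2 scale, and OGT, a binding partner of TET enzymes, had a log2 fold change of -0.62.

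Replication genes were read beside EZH2 and DNMT1, which are known to be higher in dividing cells. Of 12 replication genes, 1 was called higher and 3 lower, that is 8.33% and 25%, with a median of -0.44. The shares among protein-coding genes were 24% and 31.7%. CCNE2, a G1 cyclin, rose by 1.59 on the log2 scale in the deposited values but was at -0.21 with scaling to GAPDH, and the helicase genes MCM3 and MCM6 fell, with log2 fold changes of -1.61 and -1.27. The 12 genes summed to 819 and 810 FPKM in control and to 553 and 545 FPKM with GNE-987. Their part in the values of EZH2 and DNMT1 was not tested.

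Genes with the most similar pattern over the 4 libraries were sought among 3404 protein-coding genes averaging 10 FPKM or more, by the Euclidean distance between log2 values set to the control mean. For EZH1 they were DHX37, UBTF and SNW1, at distances of 0.0509, 0.0627 and 0.0663. For DNMT3A they were SOX12, MRPS18A and RBPMS2, at 0.141, 0.311 and 0.327. For TET1 they included GATA1 and SERPINH1, at 0.184 and 0.240. GATA1, an erythroid marker, had a log2 fold change of -3.15 beside -3.26 for TET1. This likeness follows from the rule that picked GATA1, and a link between them was not tested.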

How the data were processed

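RNA from 2 control and 2 GNE-987 libraries of NB4 cells was sequenced. Per the labels, the submitters' processing notes name HISAT2 2.0.5 and the build hg38, and according to the study's methods differential expression was tested by the authors with DESeq2. The authors deposited FPKM values per gene and library, and the counting program and annotation are not given in the sources used here. Of the deposited identifiers, 58207 (99.1%) are in GENCODE release 44.

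Here, log2(FPKM + 0.1) was tested with limma 3.58.1 in R 4.3.3 (group as the only term, empirical Bayes with an intensity trend) over the 16668 genes averaging 0.5 FPKM or more. Fold changes on this scale understate the change of low genes. Thresholds were those of the study's methods, and P values were adjusted by Benjamini-Hochberg across these genes. Ratios within a library were tested with the two-sided exact permutation test.

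Reads were recovered from FPKM steps within 0.01 of a whole read. At GENCODE exon lengths, 17431 of 32895 genes above 0 (53.0%) were whole in every library, EZH1 and TET2 among them. The others, including the other 8 genes described, came out whole at another length, which is a weaker check of their reads. The fit and the read recovery were tested on simulated data.

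The genes, lists and rules were chosen with earlier results of these data known. Besides the 10 genes, the text names the 2 largest increases and decreases past the thresholds per list with a mean of at least 1 FPKM, 12 partner genes, overlapping genes and pseudogenes, and the 3 most similar genes for the gene of each family that changed most. Of these, 2 genes are not reported here. Alternatives were other pseudocounts, minimum levels, scalings, limma-voom on recovered reads, adjusted P values, a replicate block, and omitting each library in turn. Scaling to total FPKM and the alternatives for the list genes were added after the data were seen.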

Additional observations from a re-analysis of the deposited data

How the results depend on the processing

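The scaling of the libraries mattered most. With scaling to GAPDH, total reads, limma-voom on recovered reads and total FPKM, 8 of the 9 tested genes were called lower and 0 higher. Of all 16668 tested genes, 9738, 6651, 6763 and 8751 were then called lower and 3031, 4180, 4317 and 3320 higher, in that order. With quantile normalization, 5 of the 9 were called lower and 0 higher, beside 5464 and 4235 of the 16668. With quantile normalization, total reads and limma-voom, EZH2 was above 0 at an unadjusted P value under 0.05 but by less than 2-fold. EZH2 was at -0.53 with GAPDH and -0.15 with total FPKM. With the deposited scaling, 5602 of the 16668 genes were called higher and 4148 lower. With that scaling and no minimum expression, 8757 of 32895 genes were called higher and 5146 lower. Log2 fold changes that turned below 0 with GAPDH were -0.21 for CCNE2, -1.56 for IDH1, -0.77 for IDH2, -0.39 for JARID2, -0.79 for KDM6A and -1.81 for UHRF1. With total FPKM they were -1.18 for IDH1, -0.39 for IDH2, -0.014 for JARID2, -0.42 for KDM6A and -1.43 for UHRF1, and with total reads and limma-voom -0.49 and -0.49 for IDH1 and -0.74 and -0.74 for UHRF1. UHRF1 was at -0.22 with quantile normalization, and between -0.018 and 0.089 with 1 library omitted at a time. The log2 change of the TET2 to TET3 ratio was 0.42 with a pseudocount of 1. Scaling to GAPDH, total FPKM or total reads moves every gene down alike before the pseudocount, and a pseudocount of 1 is above every TET2 value.

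Without each library in turn, the same 6 genes were called. The lone library of a group was then assumed to vary like the other group, and the largest adjusted P values from limma were 0.0565 for DNMT1 and 0.0557 for DNMT3A. With the replicate block, 9853 genes were called, 5667 higher and 4186 lower, and 6 of the 9 genes, and no call changed among the 9 genes or the partner and replication genes named. The deviations of libraries with the same number were nearly uncorrelated over genes (correlation 0.00537). This value cannot tell whether such libraries shared a culture or day, which the labels do not say. Depth limits TET2, TET1 and DNMT3A most, with 10 to 62 reads in the GNE-987 libraries.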
